A study of Drosophila melanogaster with 23 samples.

Results

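This comparison set the 2 libraries labelled MSL3 RNAi against the 2 libraries called hsbam 1 and 2, which are 4 of the 23 poly(A)-selected RNA libraries (12 groups) of a series on ovaries of Drosophila melanogaster. The libraries were picked by their titles, with earlier results of these data known, and every gene with enough counts was compared. In the MSL3 RNAi flies an RNAi construct against msl-3 was driven together with UAS-Dcr2, which makes RNAi more efficient, by nosGAL4, a driver active in the germline. The hsbam flies carried bam RNAi under nosGAL4 and a heat-shock bam transgene, and their labels list no UAS-Dcr2. Germ cells without bam do not form cysts and stay undifferentiated; switching the transgene on by heat restores bam for a time, and cysts then develop. The 2 groups therefore differ in bam RNAi, in the transgene and in Dcr2 as well as in the targeted gene. They can also differ in heat treatment and in the stage that the germ cells had reached. These differences cannot be told apart. The groups share the driver, the tissue and the age, 1 to 5 days after eclosion. Further libraries served beside them: hsbam 3 and 4, of the hsbam genotype, for a check of signs; NC2b RNAi (UAS-Dcr2, nosGAL4 and RNAi against NC2b, 2 libraries) in the same fit; and whole ovaries with UAS-Dcr2 and nosGAL4 and no RNAi (1 library).

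MSL3 is the chromodomain subunit of the MSL complex, which in male flies acetylates histone H4 along the X chromosome for dosage compensation, and its chromodomain binds histone H3 methylated at lysine 36, a mark set by Set2. In the ovary, a germline stem cell gives a cystoblast that divides into an interconnected cyst, in which meiosis begins with loading of meiotic cohesion proteins and assembly of the synaptonemal complex. A single cell of the cyst becomes the oocyte, while the rest become nurse cells that load it with maternal mRNAs. Follicle cells around the growing egg chamber later secrete the vitelline membrane and the chorion.

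The targeted gene was not lower in the libraries labelled MSL3 RNAi. msl-3 (chromosome 3L, 7123213 to 7125533, dm6 coordinates here and below) had 65.6 and 39.1 CPM (each library's counts scaled by its total) in the libraries labelled MSL3 RNAi, against 32.0 and 38.5 CPM in hsbam 1 and 2. Both values thus lay above those of hsbam 1 and 2, and the fold change was 0.65 on the log2 scale (SE 0.28; adjusted p = 0.142, edgeR's quasi-likelihood test, adjusted by Benjamini-Hochberg, which gives every fold change, SE and adjusted p below). Leaving out 1 library gave 0.26, without MSL3 RNAi library 1, to 0.98, without MSL3 RNAi library 2, where msl-3 passed as higher (adjusted p = 0.0297). Hsbam 3 and 4 had 44.7 and 18.5 CPM of msl-3, and whole ovaries had 24.5 CPM. The exons of msl-3 overlap form3 on the opposite strand, so its count is uncertain. Every direction given below is a direction of the libraries with this label.

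Among the other genes of the MSL complex, msl-1, its scaffold subunit (chromosome 2L, 18683720 to 18688800), rose. It had 388 and 268 CPM in libraries labelled MSL3 RNAi, against 81.5 and 65.6 CPM in hsbam 1 and 2 (2.23, SE 0.25; adjusted p = 0.00978), and 262 and 30.1 CPM in hsbam 3 and 4. The remaining members did not pass. The helicase mle had 75.3 and 66.9 CPM, compared with 81.8 and 89.1 CPM in hsbam 1 and 2 (-0.19, SE 0.15; adjusted p = 0.386). The acetyltransferase mof had 66.2 and 44.9 CPM, against 39.2 and 45.5 CPM (0.47, SE 0.22; adjusted p = 0.181). The male-limiting subunit msl-2 had 6.2 and 8.37 CPM, against 11.7 and 16.6 CPM (-0.87, SE 0.37; adjusted p = 0.136). The noncoding RNA roX1, a component of the complex in males, stood at 0.718 and 1.34 CPM, against 1.6 and 0.217 CPM (0.21, SE 0.97; adjusted p = 0.892), so these groups overlap. Of the 6 tested genes of the list 1 rose and 0 fell, where 16.8% of all tested genes rose and 8.48% fell, and 3 rose without MSL3 RNAi library 2.

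The total counts were 34828261 and 31419398 in the libraries labelled MSL3 RNAi, 33844807 and 18403555 in hsbam 1 and 2, 39149303 and 17253480 in hsbam 3 and 4, and 30228285 in whole ovaries. Whether paired libraries come from separate dissections is not in the labels, and p-values then measure only the spread between these libraries. The 2 further hsbam libraries did not sit together. Of the 1710 genes higher in the libraries labelled MSL3 RNAi (below), hsbam 3 lay above both hsbam 1 and 2 for 1563 (91.4%), and hsbam 4 lay below both for 1268 (74.2%). The 2 hsbam pairs also differed in small heat shock genes. These summed to 998 and 1270 CPM in hsbam 1 and 2 and 15700 and 29500 CPM in hsbam 3 and 4. In the libraries labelled MSL3 RNAi they summed to 2210 and 1720 CPM. Of the 3 germ cell markers matched, otu was called higher (below), while aub and zpg did not pass. Aub had 150 and 81.1 CPM in libraries labelled MSL3 RNAi, against 191 and 280 CPM in hsbam 1 and 2 and 168 and 90.5 CPM in hsbam 3 and 4 (-0.95; adjusted p = 0.0865). Zpg had 199 and 125 CPM, compared with 107 and 94.4 CPM in hsbam 1 and 2 and 150 and 65.1 CPM in hsbam 3 and 4 (0.76; adjusted p = 0.0785).

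Of 10180 genes tested, 1710 were higher (16.8%) and 863 lower (8.48%) in the libraries labelled MSL3 RNAi than in hsbam 1 and 2 at an adjusted p below 0.05, together 25.3%. Counts of list genes below are to be read beside these shares of all tested genes. The median fold change was -0.09 over all tested genes, 1.26 over the genes called higher and -1.95 over those called lower, so the falls were fewer and larger. At least 2-fold were 1241 of the rises and 671 of the falls. Against hsbam 3 and 4, 1678 of the 1710 rises (98.1%) and 820 of the 863 falls (95.0%) had the same sign, where 77.9% of all tested genes did. The same 2 libraries labelled MSL3 RNAi enter both comparisons, so the signs are not independent. Both libraries labelled MSL3 RNAi lay above all 4 hsbam libraries for 1320 of the rises (77.2%; 13.0% of all tested genes were called and did so) and below all 4 for 665 of the falls (77.1%; 6.53%). Over all tested genes, called or not, 19.7% lay above and 17.5% below all 4 hsbam libraries, and 29.3% lay above and 34.3% below hsbam 1 and 2.

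**Figure D1:**
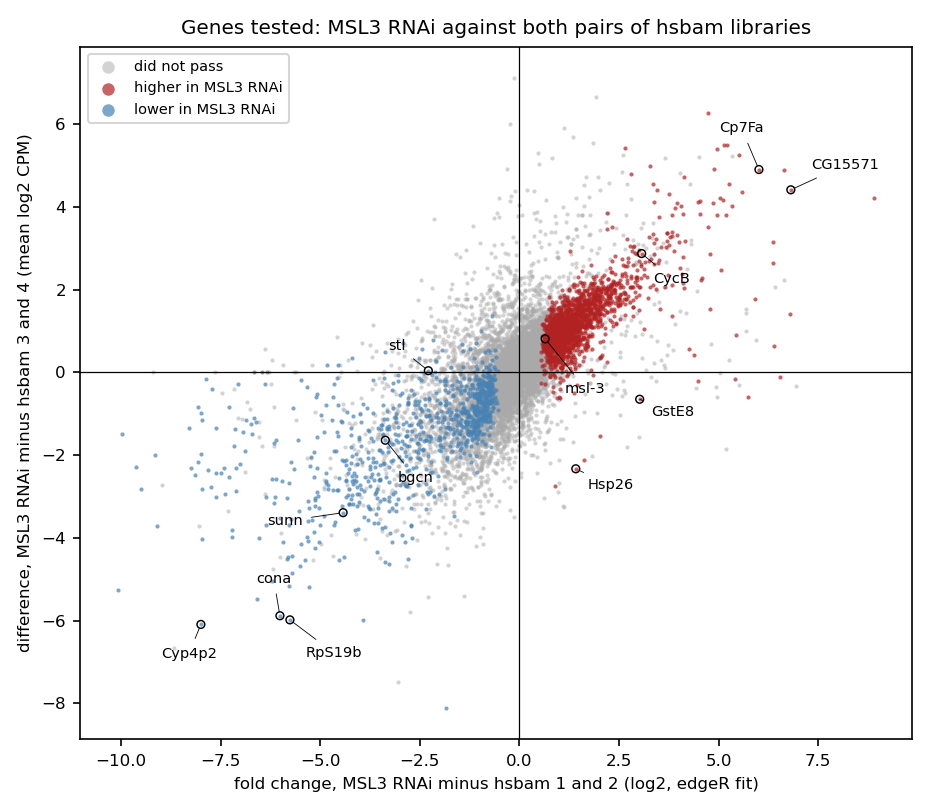
Each point is a gene: the x axis is the fold change against hsbam 1 and 2 (log2, edgeR), the y axis the difference in mean log2 CPM from hsbam 3 and 4; red points passed as higher, blue as lower, grey did not pass, and named genes are ringed. Of the called genes, 97.1% lie on the same side of 0 on both axes, with GstE8 and Hsp26 among the exceptions. Both axes share the libraries labelled MSL3 RNAi.

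How many genes passed depended on the libraries in the fit. With hsbam 3 and 4 as control 0 of 9851 genes passed by edgeR (1268 at an unadjusted p below 0.05), and without the NC2b RNAi libraries, which lend the fit their spread, 566 rises and 161 falls passed. Dropping hsbam 2 left 969 rises and 308 falls. Dropping the first library labelled MSL3 RNAi left 866 rises and 207 falls, the first NC2b RNAi library 791 and 196, and the second 793 and 182. In each of the 6 leave-one-out fits 683 rises and 134 falls passed. A gene named below passed in all 6 of them unless a library is named beside it. The exceptions, all in the comparison with NC2b RNAi, are Syt4, CG11638 and tty, which did not pass in every one, and wake, which did not pass in any. For snoRNA:Psi18S-531, also named below, these fits are not given, and the statement does not cover it.

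Against all 4 hsbam libraries together 18 genes passed, 5 higher and 13 lower, and these are named here after their values were seen. The lower ones included RpS19b, a germline paralog of the ribosomal protein RpS19a, and sunn, a meiotic cohesion gene, both described below. Cyp4p2, a cytochrome P450 (chromosome 2R, 9237512 to 9239831), had 0.0574 and 0.159 CPM in libraries labelled MSL3 RNAi, against 16.8 and 43.3 CPM in hsbam 1 and 2, 7.02 and 28.0 CPM in hsbam 3 and 4, and none in whole ovaries (-8.0, SE 0.71). The groups are far apart, but only 7 counts stand behind the low side. IFT52, a component of the intraflagellar transport that builds cilia, fell to 0.258 and 0.350 CPM, compared with 15.3 and 13.6 CPM in hsbam 1 and 2 and 5.03 and 10.1 CPM in hsbam 3 and 4 (-5.48, SE 0.48). Six4, a homeodomain transcription factor of mesoderm and gonad development, had 5.91 and 4.97 CPM, compared with 40.8 and 69.0 CPM in hsbam 1 and 2, 74.6 and 87.2 CPM in hsbam 3 and 4, and 92 CPM in whole ovaries (-3.25, SE 0.32). Whole ovaries thus stood with hsbam for Six4 and with the libraries labelled MSL3 RNAi for Cyp4p2. The Notch target E(spl)m3-HLH had 3.79 and 6.97 CPM, compared with 37.1 and 35.9 CPM in hsbam 1 and 2 (-2.68, SE 0.39). The remaining falls were CG32483, dao, CG32204, CG14932, CG42404, Nepl4 and CG12744, with fold changes from -5.80 to -2.29; that of CG32483 did not pass without MSL3 RNAi library 1 (-5.70). The rises were sff, a protein kinase (11.3 and 9.58 CPM, compared with 0.680 and 1.20 CPM in hsbam 1 and 2; 3.56, SE 0.48), Agpat1, an acyltransferase of phospholipid synthesis (3.70, SE 0.29), the long noncoding RNA CR43837 (5.04, SE 0.41), CG7381 (3.38, SE 0.44) and CG32302 (5.27, SE 0.74). CG32302 overlaps yellow-g on the opposite strand.

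Among the 8 largest falls with log2 CPM averaging 2 or more and with both libraries below all 4 hsbam libraries were 2 genes with a known germline role, RpS19b and cona. The largest, CG14301 (chromosome 3R, 18629151 to 18641457), had 0.345 and 0.318 CPM in libraries labelled MSL3 RNAi, against 18.7 and 392 CPM in hsbam 1 and 2 and 1.10 and 2.43 CPM in hsbam 3 and 4 (-9.16, SE 1.68; adjusted p = 0.0155). The hsbam 2 value was the highest by far: without that library the fold change was -5.72, and the call was lost without MSL3 RNAi library 1 or 2 (-9.19 and -9.10). CG14932, CG13540, CG10063 and CG13840 fell by 5.51, 5.39, 5.21 and 4.54 on the log2 scale, CG13540 not without MSL3 RNAi library 1 (-4.91). Ant2, an ADP/ATP carrier of the mitochondrial inner membrane, had 0.833 and 4.01 CPM, compared with 76.3 and 91.8 CPM in hsbam 1 and 2 (-5.04, SE 0.76), and shares exons with sesB.

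The 8 largest rises under the same conditions were CG15571, Cp7Fa, CG43333, Muc4B, Cp38, CG14309, CG4009 and Cp7Fc, of which 3 encode chorion proteins. CG15571 (chromosome X, 4216873 to 4217394) had 80.3 and 48.2 CPM in libraries labelled MSL3 RNAi, against 0.118 and 1.25 CPM in hsbam 1 and 2, 13.7 and 0.522 CPM in hsbam 3 and 4, and 4.96 CPM in whole ovaries (6.81, SE 0.93; adjusted p = 0.00978). Muc4B, a mucin, had 225 and 344 CPM, against 1.39 and 12.2 CPM (5.51, SE 1.05), and did not pass without MSL3 RNAi library 1 (5.81). CG14309 and CG4009 had fold changes of 5.19 and 5.13 and lost their calls without either library labelled MSL3 RNAi or either NC2b RNAi library (4.62 to 5.64 and 5.05 to 5.24). Without hsbam 2 the fold changes of the 8 genes lay between 7.76 and 9.12. For each of the 8, hsbam 3 was nearer to the libraries labelled MSL3 RNAi than were hsbam 1, 2 and 4.

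Genes of meiotic chromosome structure were split. In the list of meiotic cohesion, 2 of 13 tested genes fell and 5 rose, with a median of 0.41. Over all tested genes 8.48% fell and 16.8% rose. Both falls were of genes particular to meiosis. For sunn, a stromalin-related cohesion protein (chromosome 3L, 11728348 to 11732016), the libraries labelled MSL3 RNAi had 2.38 and 3.53 CPM, compared with 61.4 and 73.1 CPM in hsbam 1 and 2, 26.9 and 36.7 CPM in hsbam 3 and 4, and 2.75 CPM in whole ovaries (-4.43, SE 0.30; adjusted p = 0.00978). For ord, which holds sister chromatids and centromeres together (chromosome 2R, 23271257 to 23275536), they had 5.05 and 5.63 CPM, compared with 66.9 and 116 CPM in hsbam 1 and 2, 34.9 and 35.9 CPM in hsbam 3 and 4, and 1.89 CPM in whole ovaries (-4.01, SE 0.40; adjusted p = 0.00978). No library labelled MSL3 RNAi reached any hsbam library for either gene, and whole ovaries stood at the same low level. The rises were of genes that also act in mitosis. Wapl, the cohesin release factor, had 507 and 344 CPM, compared with 98.5 and 83.1 CPM in hsbam 1 and 2 (2.30, SE 0.25). Mei-S332, the shugoshin that guards centromeric cohesion, had a fold change of 1.33 (SE 0.24) and lost its call without hsbam 2 (1.39) or either NC2b RNAi library (1.35 and 1.36). The cohesin acetyltransferase eco (1.07, SE 0.20) lost it without hsbam 1 (0.99), MSL3 RNAi library 1 (0.89) or either NC2b RNAi library (1.09 and 1.10). Both falls passed in each leave-one-out fit. The rises numbered 5 without MSL3 RNAi library 2, 3 without hsbam 1 or MSL3 RNAi library 1, 2 without hsbam 2 and 1 when either NC2b RNAi library was dropped.

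**Figure D2:**
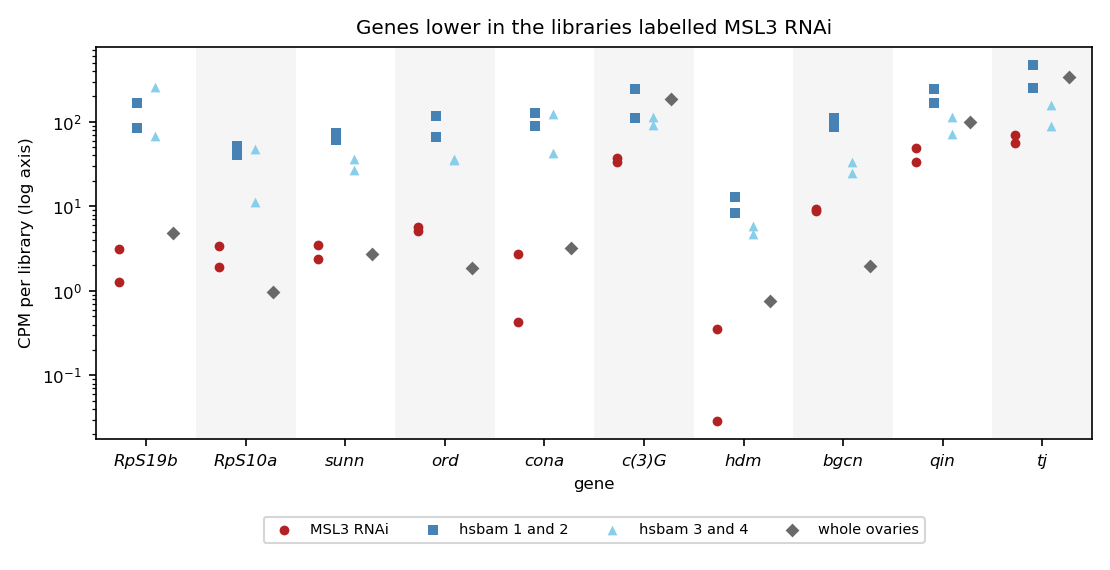
CPM per library on a log axis for 10 genes that were lower in the libraries labelled MSL3 RNAi: circles are the 2 libraries labelled MSL3 RNAi, squares hsbam 1 and 2, triangles hsbam 3 and 4, the diamond whole ovaries. In each gene both circles lie below all squares and triangles, which the naming rules required except for RpS19b, sunn, ord, cona and c(3)G. Whole ovaries are near the circles for RpS19b, sunn and cona and near the hsbam libraries for c(3)G.

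Of the 4 tested genes of the synaptonemal complex, which zips homologous chromosomes together, 2 fell. Cona, a central element protein (chromosome 3R, 18385828 to 18386887), had 0.431 and 2.74 CPM in libraries labelled MSL3 RNAi, against 88.6 and 128 CPM in hsbam 1 and 2, 42.9 and 123 CPM in hsbam 3 and 4, and 3.21 CPM in whole ovaries (-6.01, SE 0.89; adjusted p = 0.0108). C(3)G, the transverse filament (chromosome 3R, 15789473 to 15792579), had 37.4 and 33.4 CPM, compared with 110 and 244 CPM in hsbam 1 and 2 and 91.1 and 115 CPM in hsbam 3 and 4 (-2.24, SE 0.37; adjusted p = 0.0128), and its call was lost without MSL3 RNAi library 1 (-2.29), while without hsbam 2 the fold change was -1.55. Unlike for cona, whole ovaries had more c(3)G, 187 CPM, than the libraries labelled MSL3 RNAi. The lateral element gene c(2)M had 25.9 and 18.1 CPM, against 14.0 and 20.3 CPM (0.44, SE 0.32; adjusted p = 0.360), which overlap. SkpA, a ubiquitin ligase subunit needed to keep the complex assembled, had 252 and 276 CPM, against 321 and 393 CPM (-0.36, SE 0.20; adjusted p = 0.235). Exons of cona and c(3)G overlap a gene on the opposite strand (Vha100-4 and Uros2).

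Of 12 tested genes of meiotic breaks and crossovers, hdm fell and Blm and Mcm5 rose, which is near the shares over all tested genes (16.8% higher and 8.48% lower). Hdm, a meiotic crossover factor, had 0.0287 and 0.350 CPM in libraries labelled MSL3 RNAi, against 8.27 and 12.9 CPM in hsbam 1 and 2 and 4.67 and 5.85 CPM in hsbam 3 and 4 (-5.70, SE 1.07; adjusted p = 0.0168). Blm, a helicase that resolves recombination intermediates, had 218 and 150 CPM, against 51.5 and 40.0 CPM (2.08, SE 0.24). Mcm5 (0.93, SE 0.22) passed in 1 of the leave-one-out fits, that without MSL3 RNAi library 2 (1.17), which gave 4 rises in this list. Of 16 tested genes of break repair and the meiotic checkpoint 8 rose and 0 fell (median 0.77). There were 2 rises without hsbam 2, 3 without MSL3 RNAi library 1, 4 when either NC2b RNAi library was dropped, 5 without hsbam 1 and 9 without MSL3 RNAi library 2. The ATR partner mus304 had 63.2 and 47.4 CPM, against 18.3 and 15.1 CPM (1.80, SE 0.22), and the checkpoint kinase lok had 441 and 318 CPM, against 147 and 178 CPM (1.30, SE 0.22). Mus101, a checkpoint mediator (1.46, SE 0.26), lost its call without hsbam 2 (1.41).

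In the list of the cyst differentiation switch, 7 of 14 tested genes rose and 2 fell (median 0.65), 4 and 1 without MSL3 RNAi library 1. Bgcn, the partner of Bam in translational repression (chromosome 2R, 23853270 to 23858921), fell. It had 9.39 and 8.91 CPM in libraries labelled MSL3 RNAi, against 111 and 87.5 CPM in hsbam 1 and 2, 24.5 and 33.7 CPM in hsbam 3 and 4, and 1.98 CPM in whole ovaries (-3.37, SE 0.22; adjusted p = 0.00978). The order was whole ovaries, the libraries labelled MSL3 RNAi, hsbam 3 and 4, then hsbam 1 and 2. Bam itself had 52.0 and 30.0 CPM, compared with 4.61 and 71.9 CPM in hsbam 1 and 2 and 173 and 77.0 CPM in hsbam 3 and 4 (0.19, SE 1.05; adjusted p = 0.910), and its counts in hsbam can include the transgene. Rbfox1, a translational regulator of the cyst stages, had 68.3 and 96.3 CPM, against 118 and 108 CPM (-0.38, SE 0.21; adjusted p = 0.237). Without hsbam 1, bam had a fold change of -0.71, and without hsbam 2, 3.23, where it passed as higher (adjusted p = 0.0367).

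Otu, which is needed for cyst growth and oocyte fate (chromosome X, 8485008 to 8489535), had 920 and 517 CPM in libraries labelled MSL3 RNAi, against 96.9 and 86.5 CPM in hsbam 1 and 2 (3.04, SE 0.32; adjusted p = 0.00978). It had 511 CPM in hsbam 3 and 24.6 CPM in hsbam 4. Bru1, the repressor of oskar translation, had 1290 and 758 CPM, against 213 and 190 CPM (2.41, SE 0.30), and brat, a Pumilio partner in repression, had 792 and 470 CPM, against 151 and 125 CPM (2.26, SE 0.30). All 3 ranges lie above those of all 4 hsbam libraries, as the rule for naming list genes required. For otu the margin was small, 517 against 511 CPM in hsbam 3. Of 12 tested genes of oocyte specification 9 rose and 0 fell (median 1.19), with 5 rises without hsbam 2, MSL3 RNAi library 1 or either NC2b RNAi library. The actin nucleator spir had 240 and 194 CPM, against 60.0 and 39 CPM (2.2, SE 0.26), and egl, the adaptor that carries mRNAs on dynein into the oocyte, had 262 and 203 CPM, against 101 and 104 CPM (1.26, SE 0.18).

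The piRNA genes moved both ways. Of 21 tested genes of the cytoplasmic nuage 2 rose and 4 fell (median -0.09), where 16.8% of all tested genes rose and 8.48% fell. Qin, a Tudor protein of the amplification cycle, had 49.6 and 33.6 CPM in libraries labelled MSL3 RNAi, against 167 and 242 CPM in hsbam 1 and 2 and 115 and 72.3 CPM in hsbam 3 and 4 (-2.22, SE 0.27), and overlaps CG14304 and CG31224 on the opposite strand. The somatic piRNA factor fs(1)Yb (-3.20, SE 0.63) lost its call without either NC2b RNAi library (-3.18 and -3.17). The helicase armi (-1.07, SE 0.21) and the germ plasm Tudor protein tud (1.16, SE 0.19) lost theirs without hsbam 2 (-1.07 and 1.11) or either NC2b RNAi library (-1.05 and -1.04 for armi, 1.18 and 1.19 for tud). Leave-one-out fits gave 0 rises without hsbam 2 or either NC2b RNAi library, 4 without MSL3 RNAi library 2, and between 1 fall, without either NC2b RNAi library, and 5, without hsbam 1. Of 20 tested genes of the nuclear piRNA pathway and H3K9 methylation 8 rose and 2 fell (median 0.54); 4 rose and 0 fell without hsbam 2, and 5 rose and 0 fell without either NC2b RNAi library. The heterochromatin protein Su(var)3-7 had 394 and 278 CPM, against 98.7 and 82.5 CPM (1.96, SE 0.23), and the SUMO ligase Su(var)2-10 had 445 and 335 CPM, against 168 and 163 CPM (1.31, SE 0.20). Cuff, a cofactor of piRNA cluster transcription (-1.86, SE 0.32), lost its call without hsbam 2 (-1.61) or either NC2b RNAi library (-1.84 and -1.83).

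Writers and erasers of H3K36 methylation, the mark that the MSL3 chromodomain binds, were in part higher. Of 10 tested genes of that list 6 rose and 0 fell (median 1.05), and 4 of them in each leave-one-out fit. Set2 (chromosome X, 13413242 to 13421024) had 398 and 278 CPM in libraries labelled MSL3 RNAi, against 95.7 and 59.8 CPM in hsbam 1 and 2, 266 and 37.2 CPM in hsbam 3 and 4, and 240 CPM in whole ovaries (2.19, SE 0.31; adjusted p = 0.00999). The methyltransferase ash1 had 329 and 218 CPM, compared with 57.4 and 42.0 CPM in hsbam 1 and 2 (2.53, SE 0.28), and NSD, which also methylates H3K36, had 460 and 320 CPM, against 129 and 116 CPM (1.74, SE 0.23). The demethylase Kdm4B rose by 2.11 (SE 0.35), and its exons overlap CG17724 and seq. Whole ovaries had 62.2 CPM of ash1 and 117 CPM of NSD, near hsbam 1 and 2. Of the 12 tested genes of the ATAC complex and NC2 only D12, an ATAC subunit, passed in all the leave-one-out fits (77.9 and 53.1 CPM, against 17.3 and 17.0 CPM; 2.00, SE 0.23). NC2alpha (1.02, SE 0.18) lost its call without hsbam 2 (1.04) or either NC2b RNAi library (1.04 and 1.06). NC2beta had 7.78 and 6.87 CPM, against 12.2 and 16.0 CPM (-0.87, SE 0.33; adjusted p = 0.106).

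Most cell cycle genes were higher. Of 17 tested cyclins, Cdks and Cdc25 phosphatases with their regulators 15 rose and 0 fell (median 1.69), and 10 rose in every leave-one-out fit. CycB, the mitotic cyclin whose mRNA is also kept in the germ plasm (chromosome 2R, 22803521 to 22806948), had 3470 and 2400 CPM in libraries labelled MSL3 RNAi, against 484 and 249 CPM in hsbam 1 and 2, 1870 and 83.6 CPM in hsbam 3 and 4, and 1930 CPM in whole ovaries (3.07, SE 0.41; adjusted p = 0.00978). CycE, the S-phase cyclin, had 531 and 333 CPM, against 108 and 77.9 CPM (2.28, SE 0.30). CycB3, a cyclin of anaphase, had 553 and 386 CPM, against 81.9 and 67.2 CPM (2.72, SE 0.26), and twe, the Cdc25 of meiosis, had 189 and 123 CPM, against 29.1 and 24.9 CPM (2.60, SE 0.26). The G1 cyclin CycD rose by 1.69 (SE 0.22) and the securin pim by 2.53 (SE 0.25). Whole ovaries had 87.0 CPM of CycE, 35.2 CPM of twe and 28.5 CPM of pim, levels close to those of hsbam 1 and 2.

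Of 23 tested genes of replication licensing and forks 13 rose and 0 fell (median 0.93). Dup, the Cdt1 that loads the replicative helicase, had 370 and 270 CPM in libraries labelled MSL3 RNAi, against 100 and 77.7 CPM in hsbam 1 and 2 (1.92, SE 0.24). Mcm10, Cdc6 and Orc2, which also license or start origins, rose by 1.80 (SE 0.23), 1.63 (SE 0.21) and 1.47 (SE 0.23). Of 23 tested genes of the female meiotic spindle 14 rose and 0 fell (median 1.04). The centromere proteins Cenp-C and cid had fold changes of 1.76 (SE 0.21) and 1.84 (SE 0.25), the gamma-tubulin complex gene Grip71 2.00 (SE 0.26), the microtubule polymerase msps 1.4 (SE 0.22) and the checkpoint kinase Mps1 1.31 (SE 0.21). Of 13 tested genes of egg activation and anaphase control 9 rose and 0 fell (median 1.56). The polo inhibitor mtrm had 343 and 226 CPM, against 29.1 and 6.25 CPM (4.06, SE 0.74), and the cytoplasmic poly(A) polymerase wisp had 1190 and 753 CPM, against 97.1 and 20.1 CPM (4.11, SE 0.78). Both lost their calls without MSL3 RNAi library 1 (3.76 and 3.77). Leaving out libraries lowered the counts to 6 of replication (without MSL3 RNAi library 1 or either NC2b RNAi library), 7 of the spindle (without either NC2b RNAi library) and 2 of egg activation (without MSL3 RNAi library 1; 5 without NC2b RNAi library 2).

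Of 18 tested maternal mRNAs of axis patterning and germ plasm 11 rose and 0 fell (median 2.46). Bcd, the anterior determinant (chromosome 3R, 6755842 to 6759466), had 144 and 115 CPM in libraries labelled MSL3 RNAi, against 20.9 and 9.45 CPM in hsbam 1 and 2, 69.6 and 5.74 CPM in hsbam 3 and 4, and 35.3 CPM in whole ovaries (3.15, SE 0.42; adjusted p = 0.00978). Exu, which localizes bcd mRNA (chromosome 2R, 20667427 to 20671083), had 608 and 304 CPM, against 52.9 and 32.1 CPM (3.49, SE 0.43; adjusted p = 0.00978). The receptor tor of the terminal system had 170 and 114 CPM, against 27.3 and 20.1 CPM (2.65, SE 0.28), and gcl, which is needed for pole cells, had 297 and 189 CPM, against 57.8 and 47.7 CPM (2.27, SE 0.26). For all 4, hsbam 3 lay between the libraries labelled MSL3 RNAi and hsbam 1 and 2. Of 12 tested maternal RNP and decapping genes 6 rose and 0 fell (median 0.83). Smg, which clears maternal mRNA, had 2880 and 1990 CPM, against 279 and 78.2 CPM (3.83, SE 0.65), and lost its call without MSL3 RNAi library 1 (3.57). The decapping activator Patr-1 had 275 and 212 CPM, against 93.3 and 85.0 CPM (1.52, SE 0.19). Of 10 tested deadenylase genes 3 rose; 1 did without hsbam 2 or MSL3 RNAi library 1, and 0 when either NC2b RNAi library was dropped. Of 10 tested genes of yolk proteins and receptors 2 rose and 0 fell (median 0.33), where 16.8% of all tested genes rose and 8.48% fell. The yolk protein genes Yp1, Yp2 and Yp3 did not pass, with fold changes of -0.69, -0.68 and -0.18. The yolk receptor yl had 2150 and 1230 CPM, against 214 and 43.1 CPM (3.78, SE 0.81, adjusted p = 0.0231). It lost its call without MSL3 RNAi library 1 (3.35) or either NC2b RNAi library (3.8 and 3.81).

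**Figure D3:**
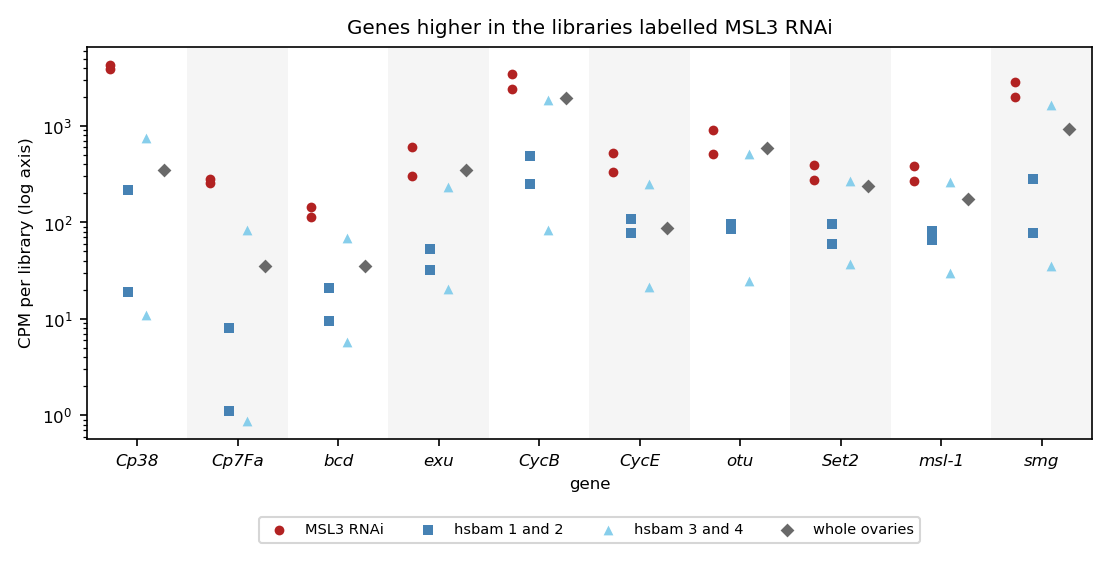
CPM per library on a log axis for 10 genes that were higher in the libraries labelled MSL3 RNAi, with the same symbols for the 2 libraries labelled MSL3 RNAi (circles), hsbam 1 and 2 (squares), hsbam 3 and 4 (triangles) and whole ovaries (diamond). Both circles lie above all squares and triangles in each gene, which the naming rules required except for Set2 and msl-1. The upper triangle, hsbam 3, lies above both squares.

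Eggshell genes rose in part. Of 14 tested chorion genes 7 rose and 0 fell (median 4.41), and the chorion sum was 19600 and 12400 CPM in libraries labelled MSL3 RNAi, against 4980 and 3370 CPM in hsbam 1 and 2, 3950 and 183 CPM in hsbam 3 and 4. Cp38 (chromosome X, 8481837 to 8483311) had 4310 and 3920 CPM, compared with 19.1 and 217 CPM in hsbam 1 and 2, 752 and 11.0 CPM in hsbam 3 and 4, and 347 CPM in whole ovaries (5.21, SE 1.13; adjusted p = 0.0239). Cp7Fa (chromosome X, 8470888 to 8473087) had 284 and 258 CPM, against 1.12 and 8.04 CPM (6.01, SE 0.93; adjusted p = 0.0111), and Cp36 2500 and 2450 CPM, against 16.0 and 154 CPM (4.96, SE 1.05; adjusted p = 0.0226). Cp7Fc and Cp7Fb, with fold changes of 5.11 and 4.96, and yellow-g (4.52), which takes part in eggshell hardening and overlaps CG32302, were the others past all 4 hsbam libraries. Hsbam libraries differed widely among themselves in these genes, hsbam 3 being the highest. Without hsbam 2 the fold changes of Cp38, Cp7Fa, Cp36, Cp7Fb and Cp7Fc were 7.83, 7.99, 7.36, 7.51 and 8.07. The calls of Cp36, Cp38, Cp7Fb and Cp7Fc were lost without MSL3 RNAi library 1 (4.98, 5.18, 4.44 and 5.00) or either NC2b RNAi library (4.98 to 5.24), and Cp7Fc also without MSL3 RNAi library 2 (5.26). The count of chorion rises was 3 without MSL3 RNAi library 1 or either NC2b RNAi library and 12 without hsbam 1.

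The vitelline membrane genes, which are transcribed at an earlier stage of the follicle cells, did not move with the chorion. Of 7 tested genes only Vm32E rose, with 201 and 111 CPM in libraries labelled MSL3 RNAi, against 27.3 and 38.0 CPM in hsbam 1 and 2 (2.33, SE 0.43; adjusted p = 0.0163), and not without hsbam 1 (2.14) or MSL3 RNAi library 1 (1.87). Without hsbam 2, Vm26Ac (2.94) passed too, and without hsbam 1 Vm26Ab fell (-1.79). Vm26Aa had 1920 and 1070 CPM, against 1150 and 3620 CPM (-0.59, SE 0.56; adjusted p = 0.483), and Vm34Ca had 2680 and 1330 CPM, against 1010 and 2560 CPM (0.25, SE 0.52; adjusted p = 0.758). Vm26Ab, Vml, psd and Vm26Ac likewise did not pass, with fold changes of -1.18, 0.50, 0.00 and 1.74. For all but Vm26Ac and Vm32E the groups overlap.

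**Figure D4:**
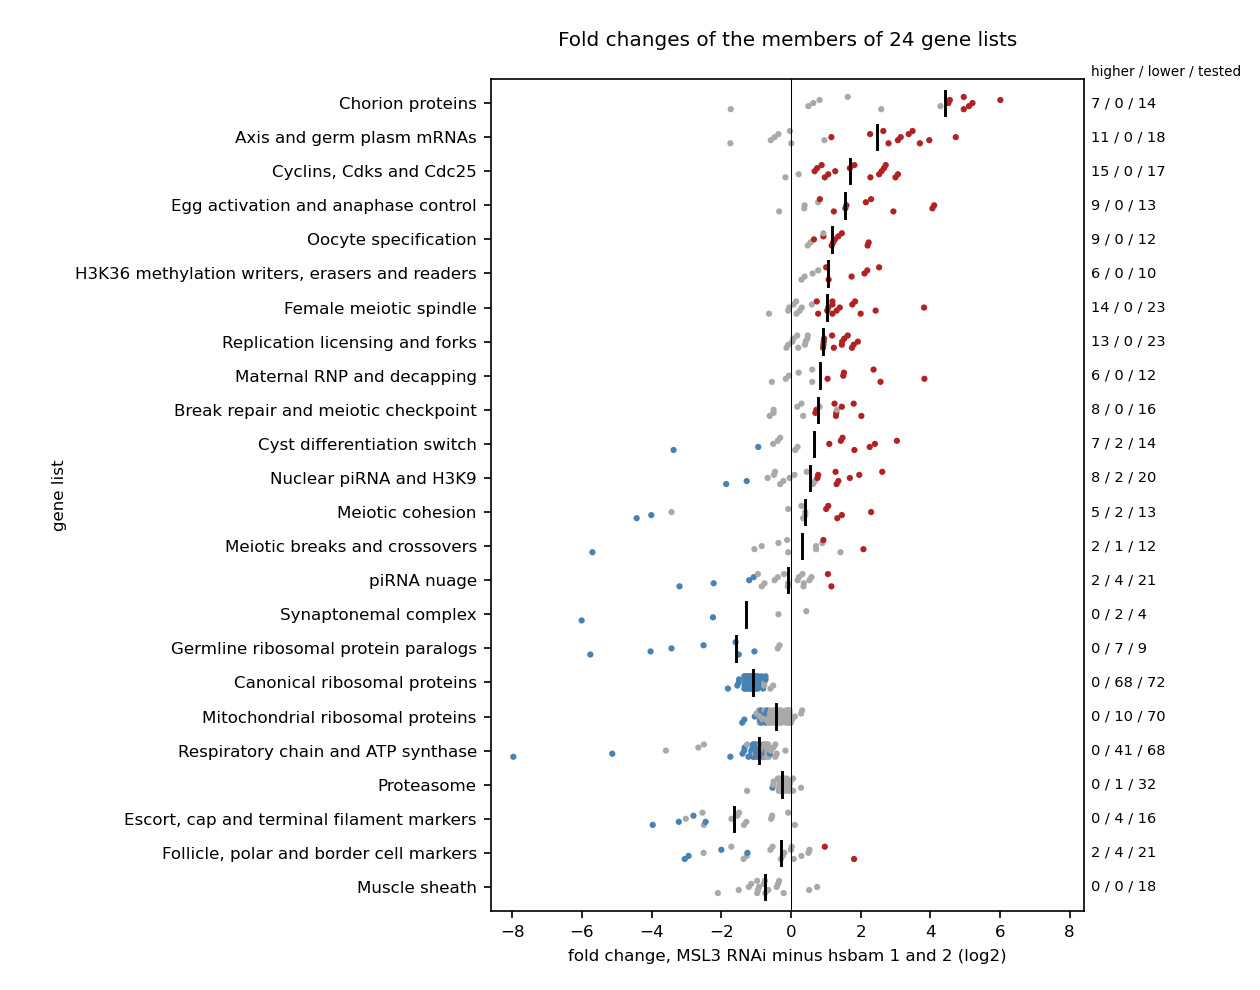
Each point is a gene of the named list, at its fold change against hsbam 1 and 2 (log2); red passed as higher, blue as lower, grey did not pass, and black bars are list medians; the numbers at the right count genes higher, lower and tested. Chorion genes have the highest median of the 24 lists (4.41), and the canonical ribosomal proteins lie close together around -1.09.

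Genes of the ribosome were lower. RpS19b (chromosome 3R, 23932729 to 23933530) had 1.26 and 3.09 CPM in libraries labelled MSL3 RNAi, against 85.4 and 165 CPM in hsbam 1 and 2, 67.3 and 259 CPM in hsbam 3 and 4, and 4.90 CPM in whole ovaries (-5.76, SE 0.58; adjusted p = 0.00978). RpS10a, another germline paralog (chromosome 3R, 27652760 to 27653363), had 3.42 and 1.94 CPM, compared with 40.8 and 51.9 CPM in hsbam 1 and 2 and 11.3 and 48.0 CPM in hsbam 3 and 4 (-4.03, SE 0.55; adjusted p = 0.00978). For both genes the libraries labelled MSL3 RNAi lay below all 4 hsbam libraries, which the naming rule required for RpS10a. Of 9 tested paralogs 7 fell and 0 rose (median -1.59), or 3 with the adjustment for exon length (median -0.89; below); the falls numbered 3 when hsbam 2, the first library labelled MSL3 RNAi or the second NC2b RNAi library was dropped, and 4 when the first NC2b RNAi library was. RpS19a had 805 and 982 CPM, compared with 2060 and 1690 CPM in hsbam 1 and 2 and 1390 and 2790 CPM in hsbam 3 and 4 (-0.99, SE 0.23; adjusted p = 0.0300), and lost its call without any library but MSL3 RNAi library 2 (-0.81 to -1.12).

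The canonical ribosomal proteins fell together by small amounts. Of 72 tested genes 68 fell and 0 rose (median -1.09), each of the 68 with both libraries below all 4 hsbam libraries, where 8.48% of all tested genes fell. Their sum was 53500 and 60500 CPM in libraries labelled MSL3 RNAi, against 119000 and 137000 CPM in hsbam 1 and 2 and 100000 and 199000 CPM in hsbam 3 and 4. Whole ovaries had 178000 CPM and so stood with hsbam here, unlike for RpS19b. RpS21 had 217 and 235 CPM, against 499 and 608 CPM (-1.22, SE 0.19; adjusted p = 0.0111), and lost its call without NC2b RNAi library 2 (-1.19). The calls rested on the set of libraries: dropping hsbam 2 left 15 falls, the first library labelled MSL3 RNAi 5, and the NC2b RNAi libraries 2 and 1. They also rested on exon length (below): with an adjustment for it, added after the data were seen, 3 of the 72 fell.

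Genes of the respiratory chain and ATP synthase were also lower in part. Of 68 tested genes 41 fell and 0 rose (median -0.93), 7 with the length adjustment. Leaving out libraries gave 19 falls without hsbam 1, 42 without hsbam 2, 9 without the first and 25 without the second library labelled MSL3 RNAi, and 10 and 7 without NC2b RNAi libraries 1 and 2. ND-24, a subunit of complex I, had 41.5 and 42.2 CPM in libraries labelled MSL3 RNAi, against 102 and 103 CPM in hsbam 1 and 2 and 60.8 and 94.6 CPM in hsbam 3 and 4 (-1.22, SE 0.15; adjusted p = 0.00978). COX7A, a subunit of cytochrome oxidase, had 112 and 139 CPM, against 322 and 373 CPM (-1.39, SE 0.19), and its fold change was -0.66 and no longer passed with the length adjustment. Of 70 tested mitochondrial ribosomal proteins 10 fell and 0 rose (median -0.44), with 1 to 3 falls in each leave-one-out fit. Of 32 proteasome genes 1 fell and 0 rose, and the fall passed in 0 of the leave-one-out fits. The nucleolar genes Fib, Ns2 and NHP2 of rRNA modification and ribosome assembly fell by 1.36, 1.33 and 1.36 on the log2 scale, among 5 falls and 3 rises in 28 tested genes of ribosome biogenesis. The rises there numbered 5 without MSL3 RNAi library 2 and 0 without any other library, and the falls 3, or 6 without MSL3 RNAi library 1.

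Fold change went with exon length. Over 9490 protein-coding genes the median fold change was -0.84 for genes with up to 500 nt of exon, -0.60 from 500 to 1000 nt, -0.21 from 1000 to 2000 nt, 0.08 from 2000 to 4000 nt, 0.48 from 4000 to 8000 nt and 0.56 above 8000 nt. Among the shortest genes 2.14% were called higher and 15.0% lower; among the longest the shares were 36.8% and 3.57%. The difference from hsbam 3 and 4 ran the same way, from -0.78 in the shortest to 0.90 in the longest genes. Spearman's rho across genes was 0.317 against hsbam 1 and 2 and 0.380 against hsbam 3 and 4, a description across genes that are not independent. With the length adjustment 1356 genes were higher and 501 lower, of which 1214 and 446 were among the calls above. Rises went from 9 to 6 in oocyte specification, 7 to 4 in the cyst switch, 14 to 10 in the meiotic spindle and 3 to 0 in deadenylases. They stayed at 7 in chorion and 9 in egg activation genes, and went from 2 to 3 in ATAC and NC2 and 1 to 2 in vitelline membrane genes. Falls of mitochondrial ribosomal proteins went from 10 to 1, and their median from -0.44 to 0.21. The falls of RpS19b (-5.01), cona (-5.44), sunn (-4.50), ord (-4.23) and bgcn (-3.60) passed with it, as did the rises of Cp7Fa (6.38), CycB (3.01), otu (2.92), msl-1 (1.91) and Set2 (1.81). What part length, RNA integrity or the libraries' preparation has in these differences was not tested.

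**Figure D5:**
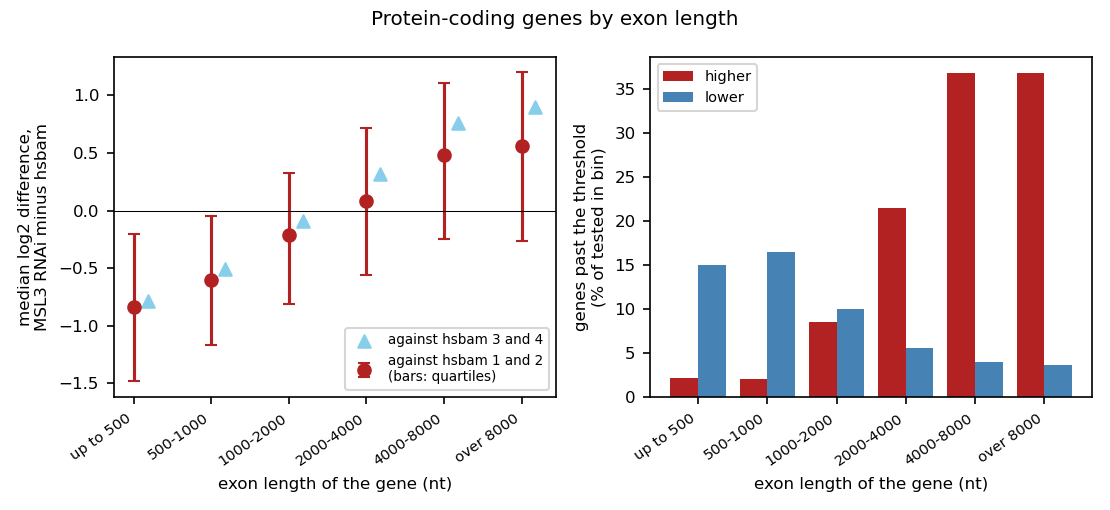
Left, median log2 difference of protein-coding genes by exon length for MSL3 RNAi minus hsbam 1 and 2 (circles, bars are quartiles) and minus hsbam 3 and 4 (triangles); right, the share of tested genes in each bin that was higher or lower than in hsbam 1 and 2. The medians run from -0.84 in the shortest to 0.56 in the longest bin, and the share called higher is 2.14% in the shortest and 36.8% in the longest.

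Small noncoding RNAs, which poly(A) selection largely leaves out, were lower in part. Of 74 tested snoRNA genes 22 fell and 0 rose (median -2.58), 19 of the 22 with both libraries below all 4 hsbam libraries, and of 10 tested snRNA genes 5 fell and 0 rose (median -2.65). The gene snoRNA:Psi18S-531, whose RNA guides a pseudouridine in 18S rRNA, had 3.42 and 2.55 CPM in libraries labelled MSL3 RNAi, against 11.1 and 11.2 CPM in hsbam 1 and 2 and 11.0 and 15.5 CPM in hsbam 3 and 4 (-1.83, SE 0.36; adjusted p = 0.0188). It was chosen after the values were seen, for its counts, since most snoRNA genes had under 3 CPM in every library.

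Markers of the somatic ovary were lower in part. Of 16 tested genes of escort, cap and terminal filament cells 4 fell and 0 rose (median -1.63). Among all tested genes 8.48% fell and 16.8% rose. Tj, the transcription factor of escort and early follicle cells, had 70.0 and 55.5 CPM in libraries labelled MSL3 RNAi, against 251 and 473 CPM in hsbam 1 and 2, 159 and 88.4 CPM in hsbam 3 and 4, and 337 CPM in whole ovaries (-2.45, SE 0.33; adjusted p = 0.00978). The signalling gene Wnt2 had 1.18 and 4.20 CPM, against 25 and 28.4 CPM (-3.22, SE 0.65), and lost its call without hsbam 2 (-3.12) or either NC2b RNAi library (-3.21 and -3.20). In bulk ovaries fewer cells of a type and less RNA per cell cannot be told apart. Leave-one-out fits gave 1 fall without hsbam 2 or either NC2b RNAi library and 11 without MSL3 RNAi library 2. Of 21 tested follicle, polar and border cell genes 2 rose and 4 fell, with 9 falls without MSL3 RNAi library 2, 2 without library 1 and 1 without hsbam 2 or either NC2b RNAi library; the rises numbered 1 or 2 throughout. The homeodomain gene mirr of dorsal follicle cells had 10.8 and 13.7 CPM, against 53.2 and 49.9 CPM (-2.0, SE 0.23), and the fascin sn, which bundles nurse cell actin, had 259 and 161 CPM, against 51.6 and 75 CPM (1.81, SE 0.29). Of 9 tested genes of germline-soma adhesion and gap junctions 2 fell and 0 rose, with a median of 0.02. The gap junction gene Inx7 had 5.94 and 5.32 CPM, compared with 49.8 and 95.1 CPM in hsbam 1 and 2 and 18.8 and 35.3 CPM in hsbam 3 and 4 (-3.60, SE 0.36).

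Markers of tissues around the ovary varied within groups. The muscle sheath markers Mhc, Act57B, Mlc2 and up summed to 3140 and 8790 CPM in libraries labelled MSL3 RNAi, against 21100 and 6020 CPM in hsbam 1 and 2, 12700 and 26100 CPM in hsbam 3 and 4, and 249 CPM in whole ovaries, and 0 of the 4 passed. Fat body and hemocyte markers summed to 820 and 3360 CPM, compared with 4070 and 1500 CPM in hsbam 1 and 2, with 0 of 5 past the threshold. MSL3 RNAi library 2 and hsbam 1 thus held most of both, and the groups overlap. Testis markers summed to 16.6 and 31.3 CPM, against 34.7 and 33.6 CPM, and dj, a marker of spermatids, was at 0 in all 4 libraries. The parts of muscle, fat body and follicle cell RNA in the results above were not tested.

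By chromosome, 20.3% of the 1715 tested X-linked genes were higher and 8.45% lower, with a median fold change of 0.00. On the arms 2L, 2R, 3L and 3R, 15.4% to 16.8% were higher and 7.93% to 9.17% lower, with medians from -0.19 to -0.06. With the length adjustment the X median was 0.11 and those of these 4 arms lay between 0.04 and 0.12.

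Directly against NC2b RNAi, which shares the driver and UAS-Dcr2, 0 of 10180 genes differed by edgeR's quasi-likelihood test (0%; smallest adjusted p = 0.154, with 1178 genes at an unadjusted p below 0.05). DESeq2 called 87 higher and 146 lower in the libraries labelled MSL3 RNAi, and edgeR called 30 without MSL3 RNAi library 1. Both groups share the hsbam control, so their fold changes against it are not independent. Cyp4p2, with 0.0574 and 0.159 CPM in libraries labelled MSL3 RNAi, had 52.5 and 55.3 CPM in NC2b RNAi (direct difference -8.95, SE 0.73; adjusted p = 0.154). Bgcn had 9.39 and 8.91 CPM, against 2.83 and 2.67 CPM in NC2b RNAi (1.71, SE 0.22; adjusted p = 0.274). The synaptotagmin Syt4 had 8.70 and 9.07 CPM, against 0.0885 and none in NC2b RNAi and 0.414 and 0.272 CPM in hsbam 1 and 2. The direct differences of CG30440, CG4476 and blanks were 2.52, 2.51 and 2.45 (adjusted p = 0.154, 0.291 and 0.291), and those of CG11638, tty, Nepl4 and wake -3.66, -3.0, -2.79 and -1.93 (adjusted p = 0.154 each), none of which passed. The genes of this paragraph were picked for their small p against NC2b RNAi. That the 2 libraries of 1 group lie clear of the 2 of the other in each therefore follows from the choice.

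Of the called genes 32 rises and 43 falls turned sign against hsbam 3 and 4, among them 61 whose log2 CPM averaged 2 or more. The glutathione transferase GstE8 had 16.9 and 13.7 CPM in libraries labelled MSL3 RNAi, against 2.51 and 1.41 CPM in hsbam 1 and 2 (3.02, SE 0.44) but 20.3 and 28.1 CPM in hsbam 3 and 4. Stl, a secreted protease-like protein, had 24.4 and 38.1 CPM, compared with 128 and 196 CPM in hsbam 1 and 2 (-2.29, SE 0.32) and 21.9 and 40.3 CPM in hsbam 3 and 4. The steroid enzyme gene spo had 9.96 and 5.12 CPM, compared with 23.2 and 64.6 CPM in hsbam 1 and 2 (-2.46, SE 0.55) and 8.91 and 2.55 CPM in hsbam 3 and 4; its call was lost without any of the fit's libraries but hsbam 1 (-1.54 without hsbam 2). Bib, a channel-like neurogenic protein, and CG13992 fell by 2.12 and 2.09 on the log2 scale and did not against hsbam 3 and 4, and CG13992 not without hsbam 2 (-1.71) or NC2b RNAi library 2 (-2.06). For these 5 genes the libraries labelled MSL3 RNAi lay clear of 1 hsbam pair and within or near the other.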

How the data were processed

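Ovary RNA was poly(A)-selected, fragmented for 13 minutes and made into directional libraries, per the labels' protocols. The deposited values are raw read counts per gene. The submitters' processing notes name HISAT2 2.1.0, featureCounts 1.6.0.4, edgeR 3.16.5 and dm6. Not given in the sources used here are the annotation release and the strand setting. Genes whose exons overlap another gene therefore have an uncertain value (182 called genes on the same strand, 815 on the opposite one). Symbols and places come from Ensembl release 115 (BDGP 6.54), which named 16647 of the 17023 IDs and left 376 without a symbol.

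The deposited counts entered edgeR 4.0.16 (R 4.3.3) for hsbam 1 and 2, MSL3 RNAi and NC2b RNAi together: TMM scaling, filterByExpr (minimum count 10, minimum total 15), the quasi-likelihood F test, Benjamini-Hochberg adjustment over all tested genes, threshold 0.05, no fold minimum. The SE is the fold change over the root of F. CPM were not scaled by TMM; log2 CPM used a prior count of 2. The procedure was tested on simulated data. DESeq2 1.42.0 and limma 3.58.1 (voom) were alternatives, with other scalings, no filter, a replicate block, other hsbam controls and each library left out. The exon length adjustment, a lowess offset with span 0.3 in each library, was added after the data were seen.

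The comparison, the gene lists (50 lists) and the naming rules were chosen with earlier results of these data known, and 14 list entries that had matched a wrong gene were removed after values were seen. Genes were named from a fixed set (msl-3, msl-1, msl-2, mle, mof, Set2, NC2beta, RpS19b, RpS19a, bam, Rbfox1, ord, sunn, c(3)G and cona), the 8 largest rises and falls beyond all 4 hsbam libraries, up to 5 passing members per list by smallest p with both libraries beyond all 4 hsbam libraries, lists of at most 8 tested genes in full, the 5 largest sign turns, and up to 5 genes in each direction against NC2b RNAi. Motifs in promoters were not analysed here, and 8 small tables of 2 lines each were not used.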

Additional observations from a re-analysis of the deposited data

How the results depend on the processing

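Main counts were 1710 higher and 863 lower genes, 0 direct differences from NC2b RNAi, 97.1% of called genes with the same sign against hsbam 3 and 4, and 365 of 1000 tested list genes called. Scaling by library size alone or by the size factors of DESeq2, limma-voom, and no filter kept the counts against hsbam within 1.5 times. DESeq2 gave 1381 lower genes, 233 direct differences and 95.3% same signs; no filter gave 2 direct differences. Without the NC2b RNAi libraries 566 higher and 161 lower genes, 93 list genes and 99.0% same signs were found. With hsbam 3 and 4 as control the counts were 0 higher, 0 lower and 0 list genes; with all 4 hsbam libraries 5, 13 and 3, all 18 with the same sign (100%). The exon length adjustment gave 501 lower genes, 208 list genes and 94.8%. Leaving out 1 library gave 791 to 1764 higher genes, 182 to 1048 lower genes, 0 to 30 direct differences, 94.2% to 98.9% same signs and 123 to 361 list genes. Replicate numbers were not used as pairs. Deviations of same-numbered libraries correlated at -0.0758 between hsbam and MSL3 RNAi, 0.143 between hsbam and NC2b RNAi and 0.0940 between MSL3 RNAi and NC2b RNAi. With 2 libraries per group such low values cannot exclude pairing. A replicate block gave 1403 higher and 520 lower genes and 98.2% same signs. Signs turned with hsbam 3 and 4 as control for Hsp26 (-2.44, and -1.52 with all 4), GstE8 (-0.75), spo (0.30) and CG13992 (0.17). The cause of these changes was not tested. Depth limits low genes: 1 count is 0.0287 CPM in MSL3 RNAi library 1.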

Other observations

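Genes of ecdysone, the steroid that times egg chamber growth, moved both ways. Of 17 tested genes 5 rose and 5 fell (median 0.31), where 16.8% of all tested genes rose and 8.48% fell. The ecdysone receptor EcR had 180 and 135 CPM in libraries labelled MSL3 RNAi, compared with 59.4 and 63.4 CPM in both hsbam libraries of the fit (1.43, SE 0.18), and its partner usp had 172 and 135 CPM, against 66.6 and 75.7 CPM (1.18, SE 0.18; its exons overlap Actn). The ecdysone-induced transporter E23 rose by 2.59 (SE 0.27). The synthesis enzyme dib stood at 0.258 and 0.223 CPM, against 2.28 and 6.52 CPM (-4.08, SE 0.76), and kept its call only without hsbam 1 (without others -3.13 to -4.15). In every leave-one-out fit 4 of the rises passed; the falls numbered 5 without hsbam 1, 1 without either library labelled MSL3 RNAi and 0 without hsbam 2 or either NC2b RNAi library.

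Of 68 tested cytochrome P450 genes 10 rose and 3 fell, shares below those over all tested genes (16.8% and 8.48%). Cyp6a22 had 89.8 and 57.4 CPM, compared with 10.7 and 7.93 CPM in hsbam 1 and 2 (3.04, SE 0.29), and Cyp6v1 had 172 and 115 CPM, against 45.9 and 32.8 CPM (1.93, SE 0.27). Cyp18a1, which breaks down ecdysone, fell to 30.4 and 26.3 CPM, against 115 and 381 CPM (-3.04, SE 0.55); without hsbam 2 the fold change was -1.93, and the call was lost without MSL3 RNAi library 1 or 2 (-3.12 and -2.93). The rises numbered 3 without either NC2b RNAi library, 4 without hsbam 2 and at most 7; the falls numbered 1 without MSL3 RNAi library 1, 11 without library 2 and 2 or 3 otherwise.

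In the small heat shock list 1 gene rose and 2 fell of 6. Hsp23 had 38.7 and 51.6 CPM in libraries labelled MSL3 RNAi, compared with 172 and 170 CPM in hsbam 1 and 2 (-1.85, SE 0.23) and 8250 and 18400 CPM in hsbam 3 and 4. Hsp26 had 1710 and 1250 CPM, compared with 474 and 696 CPM in hsbam 1 and 2 (1.42, SE 0.30) and 5830 and 9240 CPM in hsbam 3 and 4; its call was lost without hsbam 1 (1.19), MSL3 RNAi library 1 (1.21) or either NC2b RNAi library (1.43 and 1.44). The heat-shock factor gene Hsf (1.22, SE 0.22) lost its call without NC2b RNAi library 1 (1.24). The hsbam pairs thus differed in Hsp23 and Hsp26 by more than the groups compared did, and the part of heat treatment was not tested.

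Growth regulators rose in 7 of 17 tested genes of the insulin, TOR and Myc list and fell in 0 (median 0.69). Among all tested genes 16.8% rose and 8.48% fell. Mnt, the Myc antagonist, had 380 and 328 CPM, compared with 75 and 66.7 CPM in hsbam 1 and 2 (2.39, SE 0.20), and the TOR complex gene raptor had 241 and 158 CPM, against 63.5 and 49.6 CPM (1.89, SE 0.27; its exons overlap Mipp2). The count was 2 without either NC2b RNAi library and 3 without MSL3 RNAi library 1. Of 14 tested BMP signalling genes 3 rose and 0 fell (median 0.27), a share of rises not far from the 16.8% over all tested genes. Among the 3, Smurf, an inhibitor of the receptor signal, rose by 1.72 (SE 0.20) and the transducer Mad by 1.29 (SE 0.20). Of 16 tested Hippo and Notch genes 5 rose and 2 fell; 2 of these rises and 0 of the falls passed in every leave-one-out fit. The kinase wts rose by 1.41 (SE 0.20) and the corepressor H by 1.5 (SE 0.22). The falls were E(spl)m7-HLH (-2.59, SE 0.73), a Notch target, which lost its call without any 1 library, and fng (-1.72, SE 0.36), a modifier of Notch, which lost it without hsbam 2 or either NC2b RNAi library and whose levels overlap those of hsbam 3 and 4.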
